A study of Rattus with 8 samples.

Results

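miR-483 is a microRNA cut from an intron of Igf2, the imprinted gene of insulin-like growth factor 2, and its mature arms were followed here through small RNA libraries of the rat hippocampus. The members were selected by name, as every arm of rno-miR-483 in the table of tag counts, after lower counts of rno-miR-483-3p in the CPB/DHCA group had already been seen. Its difference between the groups is therefore given as a description, with no test. The rule found 2 of the 615 mature miRNAs, rno-miR-483-3p and rno-miR-483-5p. Tissue came from 9-week-old male Sprague-Dawley rats, with 4 libraries of the control group and 4 of the CPB/DHCA group. Under sevoflurane, rats of the CPB/DHCA group were put on cardiopulmonary bypass (CPB), cooled to 18 °C over 30 min and held in deep hypothermic circulatory arrest (DHCA) for 30 min before rewarming. Sham-operated control rats were intubated and cannulated without CPB or DHCA, and all animals received acetaminophen for pain. Hippocampi were taken 24 h after the procedure, so the CPB/DHCA group holds only rats that lived through that time.

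Imprinted Igf2 is read mainly from the paternal allele in most tissues and is a strong fetal growth factor. In the adult brain it is made largely by the choroid plexus and the meninges. Which allele was read in these libraries was not tested. miR-483 is often found together with its host transcript, is abundant in fetal liver and in Wilms tumour of human, and its 3p arm is known from human cells to repress BBC3 (PUMA), a promoter of apoptosis. A mature miRNA finds its targets mainly through its seed, bases 2 to 8 from the 5′ end. In the RefSeq annotation of the assembly GRCr8, Mir483 lies within the span of Igf2, whose nearest protein-coding neighbours are Ins2 (insulin 2) and Mrpl23. The files themselves give no coordinates for it.

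Both mature sequences are printed as deposited, since the arms carry different seeds, here in capitals.
rno-miR-483-3p: cACUCCUCcccucccgucuugu
rno-miR-483-5p: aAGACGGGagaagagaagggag

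Each arm is 22 nucleotides long. The 3p arm consists of 12 C, 7 U, 2 G and 1 A, so that 86.4% of its bases are pyrimidines, and none of the 464 miRBase miRNAs in the table had a larger share. The 5p arm has the opposite make-up, with 11 G, 10 A, 1 C and no U. None of the other mature miRNAs shared bases 2 to 8, or bases 2 to 7, of either arm, so each seed stood alone in these libraries.
A trace of the pairing in the hairpin is visible in the arms, where a run of 10 bases (in capitals) at positions 1 to 10 of the 5p arm is the reverse complement of positions 11 to 20 of the 3p arm.
rno-miR-483-5p: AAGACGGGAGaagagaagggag
rno-miR-483-3p: cacuccucccCUCCCGUCUUgu

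CPM, used throughout, is the number of tags of a miRNA scaled to a common library total. The longest stretch that the 3p arm shared with any other listed miRNA was the 10 bases UCCCCUCCCG, in miR-484. That is shorter than the smallest read the authors kept, but only exact runs between mature sequences were compared. Whether tags of miR-484 were counted as miR-483-3p was not tested. The level of miR-484 averaged 48.3 ± 14.5 CPM (SD, n = 4) among control libraries against 62.2 ± 12.9 (SD, n = 4) among CPB/DHCA libraries. The log2 fold change of miR-484 was 0.36 (standard error 0.27, adjusted p = 0.85 in edgeR's quasi-likelihood test), with a sign opposite to that of miR-483-3p.

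Libraries held 508574 to 772840 tags over all the listed miRNAs, so 1 tag was worth 1.29 to 1.97 CPM before scaling by TMM (trimmed mean of M values, a scaling of libraries to each other). No count of 1 is listed, so empty cells hide either 0 tags or 1, and were read as 0. Neurons are marked by miR-128-3p, at 83834 ± 27454 CPM (SD, n = 4) in control libraries, and by miR-124-3p, at 6635 ± 1507 CPM (SD, n = 4), so that the tissue was neural by its markers. Epithelial miRNAs stood apart in CPB/DHCA 4, at a sum of 38240 CPM against 18.0 to 65.7 in the other CPB/DHCA libraries, and in control 4, at 1307 CPM against 10.7 to 45.5. The difference of miR-483-3p without either of these libraries is given below.

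miR-483 gave few tags in the hippocampus. By mean control CPM the 3p arm ranked 302 and the 5p arm 391 of 615. Its neighbours in that order were miR-764-3p at 19.1 ± 20.5 CPM (SD, n = 4) and miR-760-3p at 18.6 ± 11.1 (SD, n = 4), beside 18.7 ± 10.9 (SD, n = 4) for miR-483-3p, so the order among them is within the spread of the libraries. Neither neighbour was called different between the groups, with log2 fold changes of -0.17 (standard error 0.87, adjusted p = 1 in edgeR) and 0.09 (standard error 0.6, adjusted p = 1). All the tags of both arms over the 8 libraries numbered 89.

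**Figure D1:**
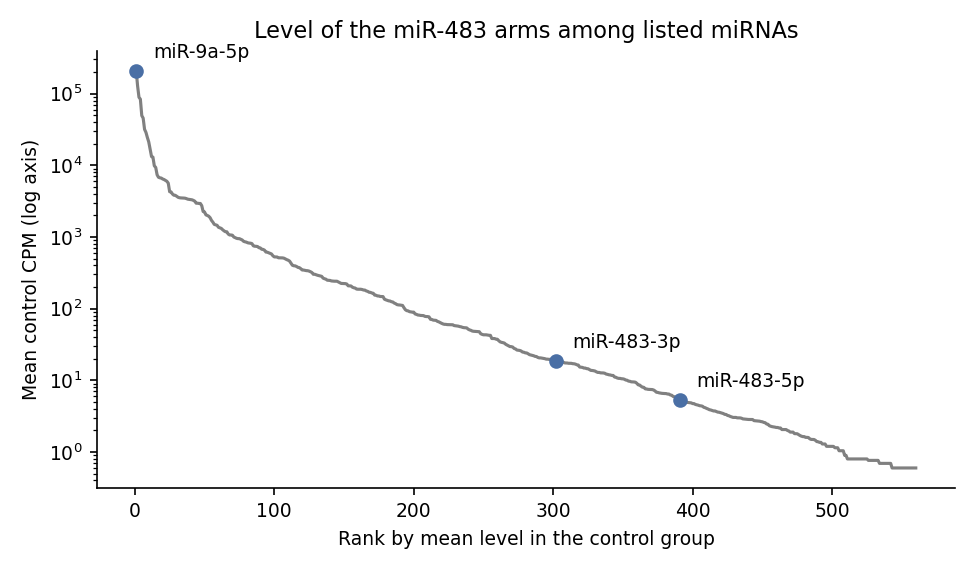
Mean control CPM (log axis) of each miRNA listed in the control group against its rank, with miR-9a-5p and the arms of miR-483 marked. miR-483-3p lies at rank 302 and miR-483-5p at rank 391, far below miR-9a-5p at rank 1.

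miR-483-3p was lower after CPB/DHCA. The tags in the libraries were 9, 28, 14 and 5 in control 1 to 4, and 3, 3, 5 and 4 in CPB/DHCA 1 to 4. Scaled by TMM, these counts gave 13.7, 33.5, 19.4 and 7.99 CPM for the controls, then 4.40, 6.01, 7.14 and 7.11 CPM after CPB/DHCA. Control 2 was the highest library and held 50% of the control tags, control 4 lay close to the CPB/DHCA libraries, and the CPB/DHCA libraries had 3 to 5 tags each. The group means were 18.7 ± 10.9 CPM (SD, n = 4) and 6.16 ± 1.29 CPM (SD, n = 4).
The fitted log2 fold change was -1.60 (standard error 0.48). From 56 pooled control tags and 15 CPB/DHCA tags, the rate was 3.22 times higher among controls (95% exact interval 1.79 to 6.12). The interval covers counting error alone and not the spread between rats. Without control 2 the ratio was 2.28 (1.18 to 4.59) and the log2 fold change -1.11 (standard error 0.44). Without control 4 it was -1.84 (standard error 0.42), and without CPB/DHCA 4 it was -1.64 (standard error 0.55). Every library left out in turn gave a log2 fold change between -1.84 and -1.11.

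**Figure D2:**
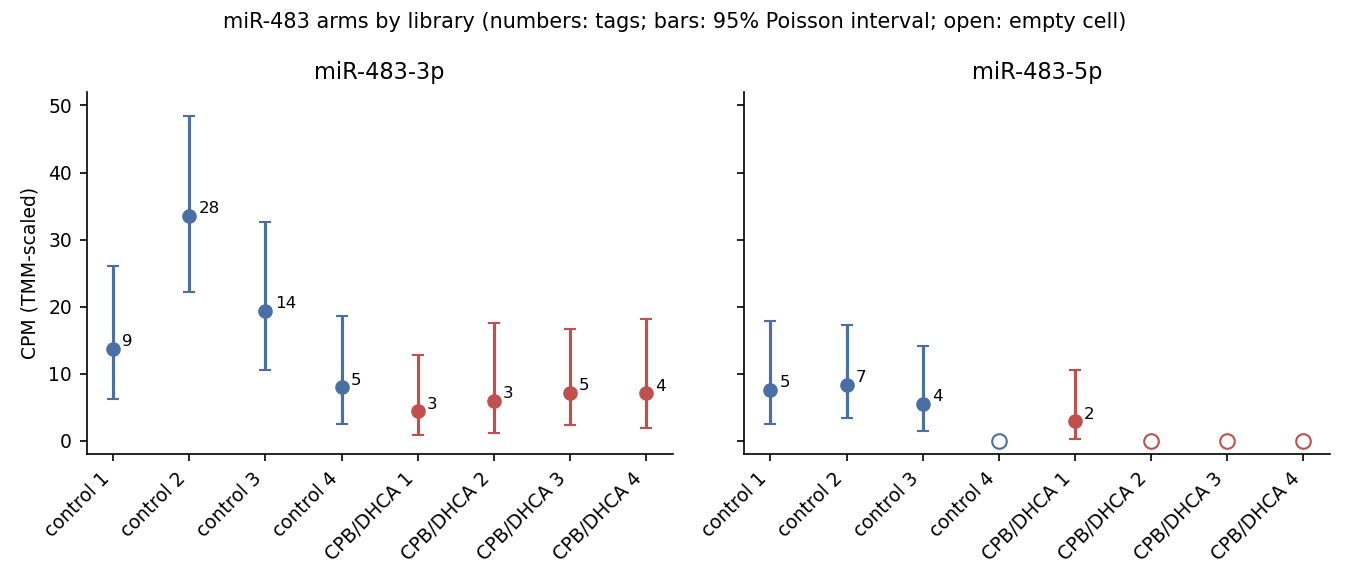
TMM-scaled CPM of each arm in each library, with the tags as numbers, 95% Poisson intervals of the tags as bars, and open circles at 0 for empty cells. In the 3p panel control 2 stands at 33.5 CPM, while control 4 (7.99) and CPB/DHCA 3 (7.14) are nearly level.

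The groups did not overlap in TMM-scaled CPM, as in 2.36% of the 467 miRNAs tested (lower in the CPB/DHCA group). This rested on the scaling. Control 4 and CPB/DHCA 3 each held 5 tags, and divided by the listed totals alone these were 8.0628 and 8.0637 CPM, so the order turned. On the deposited TPM, scaled by the authors to all aligned tags and rounded, controls had 3, 9, 5 and 2, and CPB/DHCA libraries 1, 2, 2 and 2, a tie at the boundary. Because the tissue is bulk, fewer cells that make miR-483 and less of it per cell cannot be told apart.

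The spread among the control libraries was set beside counting error. Their chi-square per degree of freedom was 4.53, and their coefficient of variation was 58.6% against 26.9% from counting alone, which leaves out the variation between rats that the fit puts at a common coefficient of 0.415 over all miRNAs. Without control 2 the chi-square per degree of freedom was 1.57. In the CPB/DHCA group it was 0.18, with a coefficient of variation of 21.0% against 52.1% from counting. With 3 to 5 tags a library, a spread between the CPB/DHCA rats was not detectable at this depth, and the 95% Poisson interval of CPB/DHCA 1 alone ran from 0.91 to 12.85 CPM.

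The 5p arm was rarer still. It had 5, 7 and 4 tags in control 1, 2 and 3, an empty cell in control 4, 2 tags in CPB/DHCA 1 and empty cells in the other 3 CPB/DHCA libraries. In CPM these were 7.63, 8.38 and 5.55 in the listed control libraries and 2.93 in CPB/DHCA 1. The libraries with a listed 5p arm in the control group were the 3 with the most 3p tags, and the groups overlapped through the empty cell of control 4. Read as 0, the empty cells gave a ratio of the pooled tags, control to CPB/DHCA, of 6.89 (95% exact interval 1.62 to 61.78, from 16 and 2 tags). With 1 tag in each empty cell the ratio was 2.93 (1.04 to 10.15). The fitted log2 fold change of -2.52 (standard error 1.13) rests on the reading as 0, and was -1.43 (standard error 0.52) with 1 tag in every empty cell. This arm met the filter of 4 listed libraries with 3 control libraries and 1 CPB/DHCA library. It was thus kept mainly through the group where it is higher, and its fitted value is a description only.
The 3p arm was the more abundant in every library. It made up 77.8% of the control miR-483 tags (56 of 72, Clopper-Pearson 95% interval 66.4 to 86.7) and 88.2% of the CPB/DHCA tags (15 of 17, 63.6 to 98.5). These intervals overlap widely, and a change of arm usage was not detectable at this depth. With 1 tag in each empty cell the 5p arm had 17 control and 5 CPB/DHCA tags, beside 56 and 15 of the 3p arm. The higher 3p share after CPB/DHCA therefore rested on the reading as 0. Across the 8 libraries the arms had a Pearson r of 0.72 on log2(CPM + 1), and 0.48 as deviations from the group means. With both arms added in 1 line the log2 fold change was -1.79 (standard error 0.48).

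**Figure D3:**
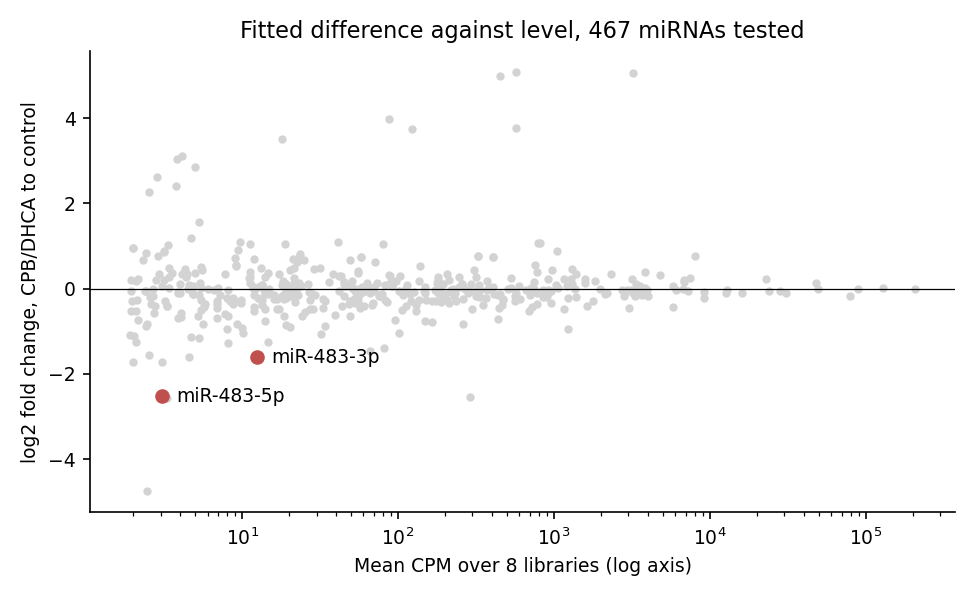
Fitted log2 fold change, CPB/DHCA to control, against mean CPM over the 8 libraries (log axis) for the 467 miRNAs tested, with the arms of miR-483 in red. miR-483-3p lies at -1.60, below the other points between 5 and 30 CPM, which run from -1.29 to 3.50.

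Fitted differences at the level of miR-483-3p can be read from the plot of fold change by level. Over the 467 miRNAs tested the median log2 fold change was -0.05. The other 122 tested miRNAs with a mean between 5 and 30 CPM, which includes the level of miR-483-3p, had log2 fold changes from -1.29 to 3.50, with the middle of them (lower to upper quartile) between -0.37 and 0.14. Among the 72 with a mean over 1000 CPM the quartiles were -0.11 and 0.14 and the range -0.94 to 5.07. The value of miR-483-3p lay below all 122, and that contrast is the one it was chosen on. Being the lowest also rests on these bounds. Outside them, miR-101a-5p had -2.57 at a mean of 3.30 CPM, and a predicted miRNA of chromosome 18 had -2.535 at 289 CPM.

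**Figure D4:**
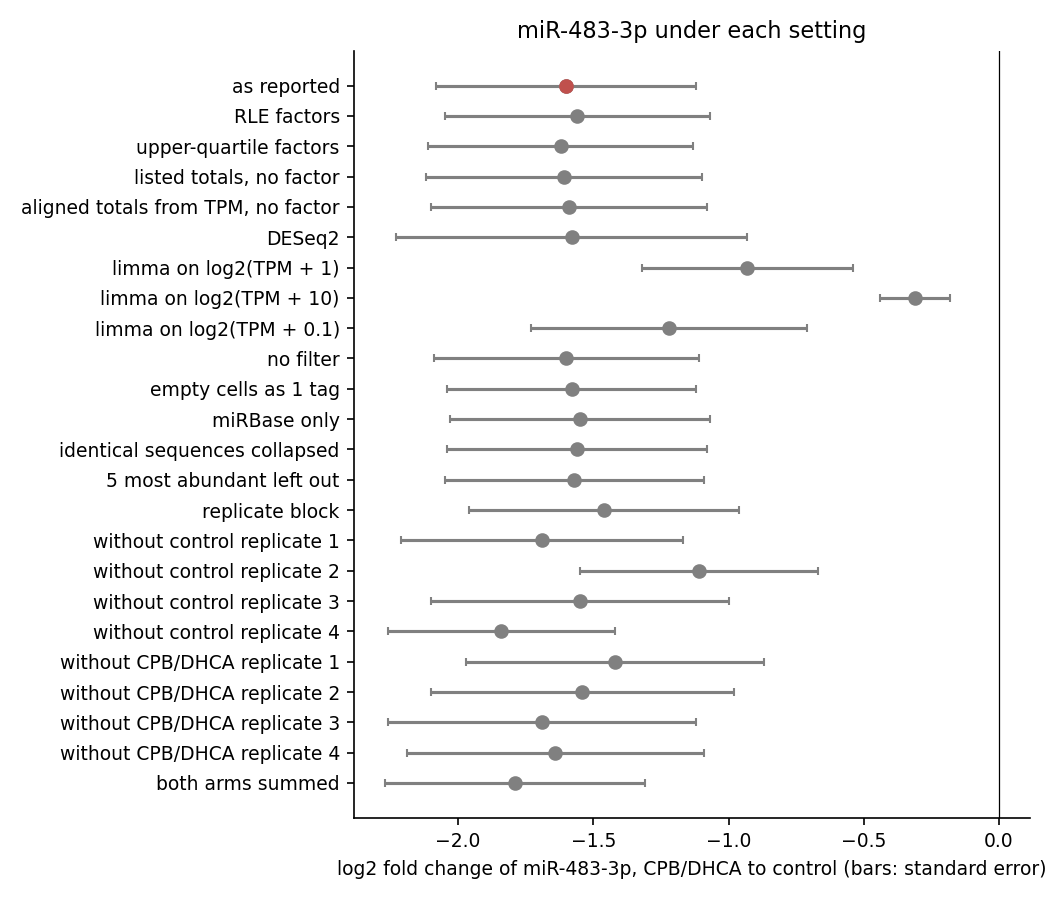
Log2 fold change of miR-483-3p, CPB/DHCA to control, with its standard error, as reported (red) and under each other setting (grey). All values are below 0, and those nearest to 0 are from limma with 10 (-0.31) and 1 (-0.93) added to the TPM.

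The miRNAs whose levels followed miR-483-3p most closely were sought among 348 tested miRNAs with a mean of at least 10 CPM, by Pearson r of log2(CPM + 1) over the 8 libraries. The 5 highest were miR-344a-3p (r = 0.91), miR-410-3p (0.85), miR-450a-5p (0.84), miR-145-5p (0.82) and miR-652-3p (0.82), against a median r of 0.05. These values share the libraries, their depth and the group difference, and they are descriptive. As deviations from the group means the same 5 had r of 0.84, 0.63, 0.68, 0.75 and 0.75, and only 1 of them, miR-344a-3p, was also among the 5 highest by that measure, where let-7i-5p led with 0.89. Without control 2 and control 3, the libraries farthest from the median, r was 0.79, 0.89, 0.67, 0.46 and 0.62.
miR-344a-3p belongs to a family known from rodents. Its tags were 72, 140, 86 and 62 for the controls against 46, 40, 61 and 64 after CPB/DHCA, with control 2 again the highest and the groups overlapping. Its log2 fold change was -0.51 (standard error 0.24, adjusted p = 0.56 in edgeR). miR-145-5p, a miRNA of smooth muscle and pericytes, had 323, 781, 329 and 192 control tags and 223, 199, 159 and 216 CPB/DHCA tags, where control 2 stood far above the rest. miR-410-3p, of the imprinted Dlk1-Dio3 domain, averaged 1066 ± 153 CPM in controls against 842 ± 64.9 after CPB/DHCA (SD, n = 4 each), with no overlap of the groups. Not one of these 5 passed a fold of 1.5 with an unadjusted p of 0.05.

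The other miRNAs of imprinted loci were read beside miR-483, as its host is an imprinted gene. The study's thresholds, a 1.5-fold difference in either direction with p no higher than 0.05 before adjustment, decided which miRNAs were called. At these, 3.85% of the 467 miRNAs tested were called higher and 3.43% lower. The 16 lower calls became 4 without control 1, 10 without control 2, 8 without control 3 and 7 without CPB/DHCA 1, while the 18 higher calls became 10 without control 2 and 9 without control 3. Of the 75 tested imprinted miRNAs other than miR-483, none was called higher and 3 were called lower, with a median log2 fold change of -0.10. A share of 3 in 75 lies near the background.
At the Gnas locus, which codes for the stimulatory G protein, miR-296-5p averaged 59.9 ± 19.97 CPM in controls against 48.9 ± 10.9 after CPB/DHCA (SD, n = 4 each), with -0.29 as log2 fold change (standard error 0.29). miR-296-3p, miR-298-3p and miR-298-5p had -0.20, -0.37 and 0.04. miR-335, from an intron of the paternally expressed Mest, averaged 10.02 ± 5.93 and 7.33 ± 4.51 CPM (SD, n = 4 each), and its log2 fold change was -0.36 (standard error 0.61). None of these 5 was called, and their adjusted p was 0.93 or more in edgeR.
The Dlk1-Dio3 domain, whose miRNAs are read from the maternal allele, gave 70 of the 75. Its most abundant members, miR-127-3p and miR-136-3p, had log2 fold changes of -0.06 and -0.03. The 3 called lower were miR-136-5p (-0.87), miR-376a-3p (-0.73) and miR-668 (-0.64), each with an adjusted p of 0.53. Their calls ended in 7, 5 and 6 of the 8 fits with 1 library left out.

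Repressors of the insulin-like growth factor axis form the other group around Igf2. They comprise 20 miRNAs known, in part from other species, to target Igf1, Igf1r or Irs1, among them the let-7 guides. None of the 20 was called higher and 2 were called lower, beside 3.85% and 3.43% of all those tested, and the median log2 fold change was -0.09. With so few members 2 calls are little to read from. let-7g-5p and let-7f-5p, the most abundant, had log2 fold changes of 0.00 each (standard errors 0.11 and 0.08). The 2 called were miR-1-3p of striated muscle (-1.05, standard error 0.42) and miR-29b-3p (-0.78, standard error 0.31), each with an adjusted p of 0.53 in edgeR. miR-29b-3p was singled out by the study on these same samples, so it is not independent evidence. The calls of miR-1-3p and miR-29b-3p ended in 5 and 6 of the 8 fits with 1 library left out.

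Markers of cells that could carry miR-483, or that differ between dissections, were summed in each library. The 10 listed miRNAs of choroid plexus and ependyma summed to 1685 to 4263 CPM in controls (median 2638) and to 1196 to 3743 CPM after CPB/DHCA (median 1730). Control 2 was the highest of the control group and CPB/DHCA 3 of the other. Of the 9 tested, 8 had log2 fold changes below 0, with a median of -0.48, and none was called. miR-34c-5p and miR-204-5p, the most abundant, had -0.41 (standard error 0.47) and -0.42 (standard error 0.29). CPB/DHCA 3, with the second highest choroid and ependymal sum of all, had 5 tags of miR-483-3p, against 28 in control 2. Each of these libraries had both the highest sum and the most miR-483-3p tags of its group. The part of choroid and ependymal cells in the level of miR-483-3p was not tested.
The 7 miRNAs of mural cells and fibroblasts summed to 2448 to 7543 CPM in controls (median 3726) and to 2435 to 3932 CPM after CPB/DHCA (median 2955). Control 2 was again the highest of all the libraries, and the sum had a Pearson r of 0.79 with miR-483-3p over the 8 libraries, beside 0.50 for the choroid and ependymal sum. Without control 2 these were 0.48 and 0.14 over 7 libraries. Of 6 tested, 1 was called lower, beside 3.43% of all those tested, and with so few members 1 call is little to read from. It was miR-199a-5p (-1.38, standard error 0.52, adjusted p = 0.53 in edgeR), a call that ended without control 1, control 2 or CPB/DHCA 1. The other arm, miR-199a-3p, was not called (-0.51, standard error 0.30). miR-143-3p and miR-145-5p had -0.46 (standard error 0.33) and -0.71 (standard error 0.33). The part of such cells in the level of miR-483-3p was not tested.

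**Figure D5:**
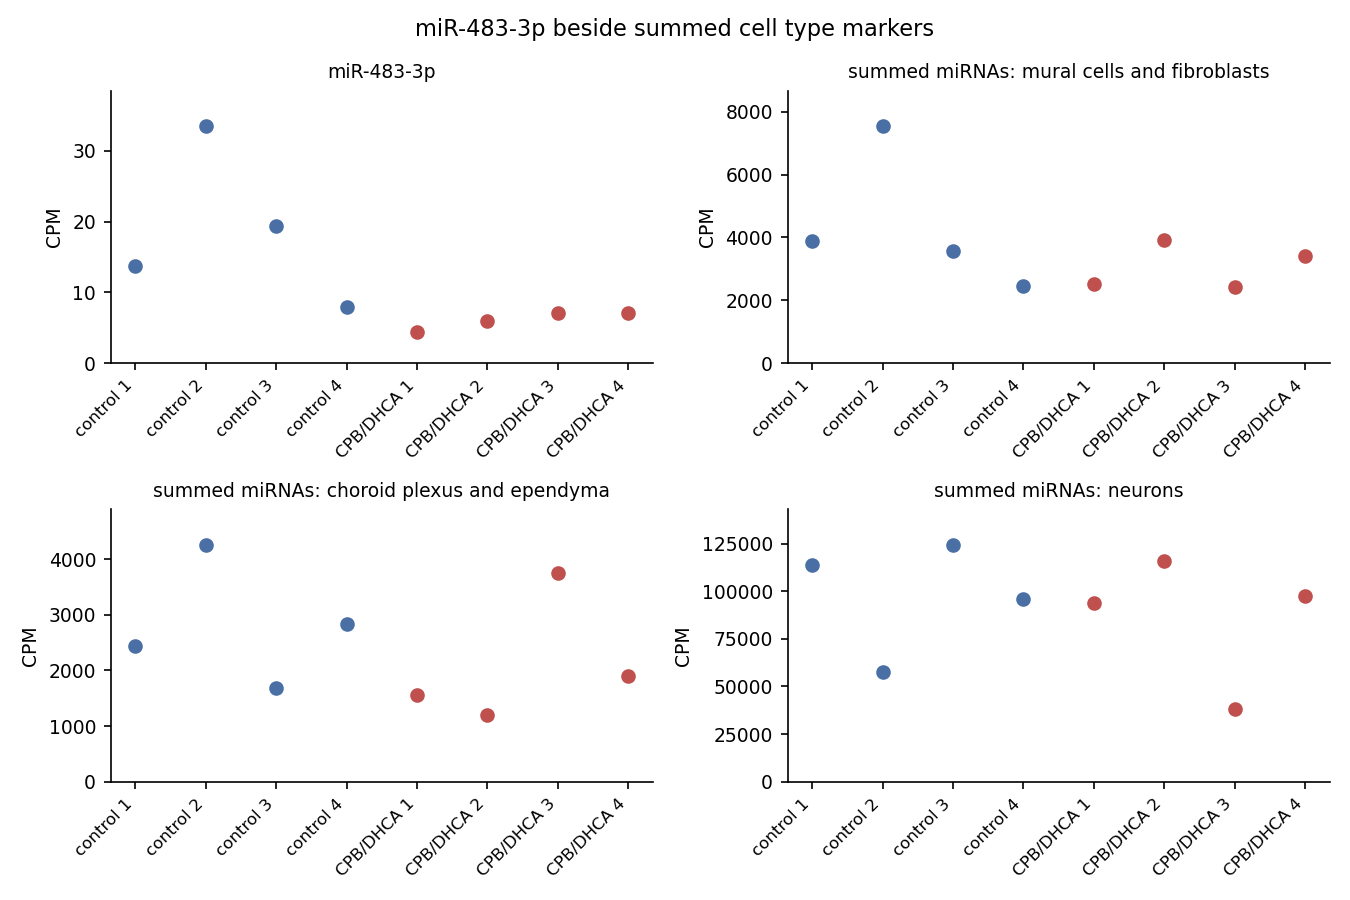
CPM in each library (blue for control, red for CPB/DHCA) of miR-483-3p and of the summed miRNAs of mural cells and fibroblasts, of choroid plexus and ependyma, and of neurons. Control 2 is highest for miR-483-3p (33.5 CPM) and for the mural sum (7543 CPM), and is the lowest control library for the neuronal sum (57369 CPM).

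Summed neuronal miRNAs were lowest of the controls in control 2. The sum was 57369 CPM there and 95831 to 124566 CPM in the other control libraries, while the lowest of all the libraries was CPB/DHCA 3 at 38129 CPM. miR-128-3p made up 85.9% of this sum. The rest of it came to 10724 CPM in control 2 against 15034 to 15338 CPM in the other controls, and 8 of the 12 tested had their lowest control value in that library, though miR-137-3p, for one, did not. In the imprinted list, the largest, this held for 20 of the 75 tested. Such a count was not made over all tested miRNAs. None of the 12 was called, with a median log2 fold change of -0.17.
The Pearson r with miR-483-3p on log2(CPM + 1) over the 8 libraries was also computed for the other sums. It was -0.64 for erythrocytes, 0.47 for imprinted loci, 0.32 for liver, -0.23 for epithelium, -0.14 for striated muscle, -0.09 for neurons, -0.06 for endothelium and 0.02 for the growth factor repressors. Without control 2 these sums had r of -0.44, 0.22, 0.12, -0.21, 0.36, 0.33, 0.38 and 0.68 over 7 libraries, so most of them moved with that library. Some sums were mostly a single miRNA, with miR-486 at 80.7% for erythrocytes and miR-499-5p at 83.8% for striated muscle. For mural cells and fibroblasts miR-143-3p made up 81.2%. Such an r describes mainly that miRNA.
Calls in the remaining lists came from erythrocytes and striated muscle. Both arms of miR-126a, of endothelium, had log2 fold changes of 0.23 and -0.18, while among the liver miRNAs miR-194-5p and miR-192-5p had -0.38 and -0.18. miR-122-5p, the defining miRNA of hepatocytes, had 12 control tags and 10 CPB/DHCA tags. Of the 5 tested miRNAs of striated muscle, 4 had log2 fold changes below 0, with a median of -1.03. miR-1-3p alone was called, beside 3.43% of all those tested called lower. The most abundant of the list, miR-499-5p and miR-206-3p, had 0.16 (standard error 0.18) and -1.03 (standard error 0.46). Among 4 miRNAs of erythrocytes, 3 were called higher, beside 3.85% of all those tested. They were miR-144-3p, with 8 control tags and 83 CPB/DHCA tags, miR-144-5p, with 2 and 18, and miR-451-5p, with 3 and 16. These 3 were known from the same samples beforehand and are not independent evidence. As no count of 1 is listed, the control tags of miR-144-5p and of miR-451-5p lay in a single library each. Both thus met the filter of 4 listed libraries mainly through the group where they are higher, and their calls are descriptions only. Those calls ended in 4 and 5 of the 8 fits with 1 library left out. For miR-486 the fitted value was -0.13 (standard error 0.23). No epithelial miRNA was called. The most abundant by mean over all 8 libraries, miR-200a-3p and miR-200b-3p, had fitted values of 5.07 (standard error 2.70) and 5.09 (standard error 2.54), with CPB/DHCA 4 far above the rest as given above.
Over all 10 lists, 137 miRNAs were tested and 9 were called, comprising 3 higher and 6 lower. That is 6.57% beside 7.28% of all 467, and DESeq2 also called 9. The 9 include miR-144-5p and miR-451-5p, which were kept mainly through the group where they are higher. The lowest adjusted p in the lists was 0.077, for miR-144-3p (edgeR). The count was 3 without control 1, 5 without control 2, 3 without control 3 and 2 without CPB/DHCA 1. Of the 9, only miR-144-3p was called with any 1 library left out.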

How the data were processed

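Small RNA of 8 hippocampal samples was analysed. The authors trimmed adapters with cutadapt 1.9.3, used Novoalign 3.02.12 for alignment against miRBase and predicted precursors, and deposited tag counts per mature miRNA. The processing notes name rn6. The deposited score is their TPM, rounded to whole numbers. A name on several lines was used once.

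Counts were fitted in edgeR 4.0.16 (R 4.3.3, TMM factors 0.891 to 1.129, glmQLFit and glmQLFTest) over 467 miRNAs with at least 10 counts that were listed in at least 4 libraries. Adjusted p is by Benjamini and Hochberg over all of them. edgeR's common coefficient of variation came to 0.415. The procedure was tested on simulated data. Intervals (95%) are exact and cover counting error only. Samples are numbered within groups by the labels. The p values set each difference between the groups against the spread between these samples, which is estimated partly from all the miRNAs tested. Total counts ran from 508574 to 772840.

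Named miRNAs were the arms of miR-483, miRNAs with its seed, the 5 most alike, its neighbours in level, the called and 2 most abundant members of each list, and the imprinted ones outside Dlk1-Dio3. miR-484, let-7i-5p, miR-122-5p, miR-9a-5p, miR-199a-3p, miR-101a-5p and a predicted miRNA of chromosome 18 were added after their values were seen. Members and lists were chosen with earlier results of these data known. Alternatives were DESeq2 1.42.0, limma 3.58.1 on log2(TPM), other scalings, filters and readings of empty cells, a replicate block and each library left out. Python 3.11.15 (pandas 2.3.3, scipy 1.17.1) served for intervals, correlations and plots.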

Additional observations from a re-analysis of the deposited data

Results flagged for a closer look

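In 34 groups of 4 libraries (the arms of miR-483, the sums of 10 lists and the 5 most similar miRNAs, in each group), 3 held a library far from the rest, and chance marks about 1 in 20. miR-483-5p had 2.93 CPM in CPB/DHCA 1, from 2 tags, and empty cells in the other CPB/DHCA libraries. Any listed value beside only empty cells counts as far from the rest. The chance rate given above therefore does not apply to miR-483-5p in this group, and nothing is read from its mark. The summed epithelial miRNAs reached 1307 CPM in control 4, against 10.7 to 45.5 in the other control libraries. In CPB/DHCA 4 they reached 38240 CPM, against 18.0 to 65.7. Those libraries had 5 and 4 tags of miR-483-3p.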

How the results depend on the processing

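The log2 fold change of miR-483-3p stayed below 0 under each other setting that could give it, and that of both arms summed was -1.79. It was -0.93 with limma on log2(TPM + 1) and -0.31 on log2(TPM + 10). With 1 library left out it ranged from -1.84 to -1.11. A filter of 10 counts in 4 libraries removed both arms, and the 5p arm could be fitted in 4 of the 8 fits with 1 library left out. The 9 list miRNAs called became 3 with limma on log2(TPM + 10), 13 with the replicate block, 13 with no filter, and 2 to 12 with 1 library left out. Of the 5 miRNAs most like miR-483-3p, 3 were shared by rank correlation and 2 on the deposited TPM. The chi-square per degree of freedom of the control libraries ranged from 1.57 to 6.76 with 1 of them left out, an alternative chosen after seeing the data, as were the sum of both arms, the scalings of the overlap, and the list sums without control 2 or without their most abundant miRNA. Same-numbered libraries correlated at 0.195, -0.077, -0.061 and 0.501 as deviations from the group means, and 2 of 4 control libraries correlated best with their own number. With a replicate block the log2 fold change of miR-483-3p was -1.46, that of miR-483-5p was -2.60, and 31 miRNAs in place of 34 were called. With 1 library left out, 17 (control 3) to 40 (control 4) were called, with 20 without control 1 or control 2, against 12 with limma on log2(TPM + 10) and 19 over miRBase miRNAs alone. Depth is a limit, since 3 to 28 tags stand behind each value of miR-483-3p.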
